A study of Homo sapiens with 6 samples.

Results

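KKU-100 is a cell line from a poorly differentiated cholangiocarcinoma, a cancer of the bile duct epithelium. KKU-100 cells given regorafenib, labelled 10 µM, were compared with KKU-100 cells given solvent. The arrays were chosen by their labels, and the comparison rests on 2 of the 6 arrays of the study, 1 a side. The other 4 are KKU-100 cells at 1 µM and HuccT1 cells, a bile duct carcinoma line, with solvent, 1 µM and 10 µM. The study's text gives lower doses than the labels and a short exposure, so the labelled doses serve here as names of the arrays. It names dimethyl sulfoxide as the solvent of its inhibitors. The labels of all 6 arrays also mention stable transduction followed by puromycin, without naming a construct, and the solvent arrays carry the same wording, so what the cells of each array carried is not known.

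Each array measured RNA as a signal per probe set, a group of short probes against 1 transcript. With 1 array a side there is no replicate error, so no difference below carries a p-value, and 1.5-fold, the cutoff of the study, stands as a description of size. The level filter kept a probe set where its mean log2 signal over the solvent and 10 µM arrays reached the array median, a signal of 29.2 with solvent and 28.8 at 10 µM. It kept 27292 of 54613 probe sets. Of these, 26185 lay above the median on both arrays, 554 on the solvent array only and 553 on the 10 µM array only. Where a gene had several probe sets, the one with the highest mean signal over the 6 arrays gave its value, which left 12671 of 19775 genes past the filter. Only probe sets of the same gene show how well a value repeats, and that spread is technical.

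The array medians ranged from 28.8 to 29.3, and no array stood apart in its signal range. Of 10 biliary epithelial markers on the array, 7 passed the filter in KKU-100. SPP1, an acidic phosphoprotein of bile duct cells, had a signal of 10682 with solvent and 10199 at 10 µM, and KRT7, a duct keratin, had 917 and 1073. Other defining markers were near the bottom of the scale. KRT19, a keratin of bile ducts, had a signal of 9.47 in KKU-100 with solvent and 9006 in HuccT1, and EPCAM, an epithelial adhesion molecule, had 11 and 6432. Of 17 leukocyte, endothelial, hepatocyte, fibroblast and muscle markers, 7 passed the filter, none moved past 1.5-fold at 10 µM, and their summed signal was 1242 with solvent and 1332 at 10 µM. PTPRC, ALB and CDH5, markers of leukocytes, hepatocytes and endothelium, stayed below the array median on both arrays. CD3E, TTR and PECAM1, further markers of the same cell types in that order, were among the 7 that passed. The fibroblast and muscle markers ACTA2, DES, COL1A1 and DCN passed as well. In a bulk culture fewer cells that make an RNA and less of it per cell cannot be told apart.

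Regorafenib is an oral inhibitor of several kinases, among them VEGF, PDGF and FGF receptors, KIT, RET and the RAF kinases. RAF passes growth signals to MEK and ERK, and ERK then induces immediate early genes such as FOS and EGR1 and its own brakes, the DUSP phosphatases and the Sprouty proteins. NF-kB is held in the cytoplasm by inhibitor proteins such as NFKBIA, and once released it turns on chemokines, cytokines and the genes of its own inhibitors. Bile duct cancer cells use growth factor signals of this kind, and chemokines from bile duct cells are known to recruit leukocytes.

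At 10 µM, 1189 genes (9.38%) were higher past 1.5-fold and 626 (4.94%) were lower. Counted by probe set, 2244 (8.22%) were higher and 2060 (7.55%) lower. The median log2 change over the 12671 genes was 0.05, with quartiles of −0.15 and 0.29. Past 2-fold lay 306 genes on the higher side and 188 on the lower side, and past 4-fold 13 and 20. Falls were thus fewer than rises at 1.5-fold and at 2-fold, and outnumbered them only past 4-fold. CXCL1, a chemokine, and SLC2A4RG lay just inside the cutoff on the higher side, with SLC7A2 and COPB2-DT just outside it. MAPK8 and DBF4 lay just inside the lower side and EED and RBM12 just outside.

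**Figure D1:**
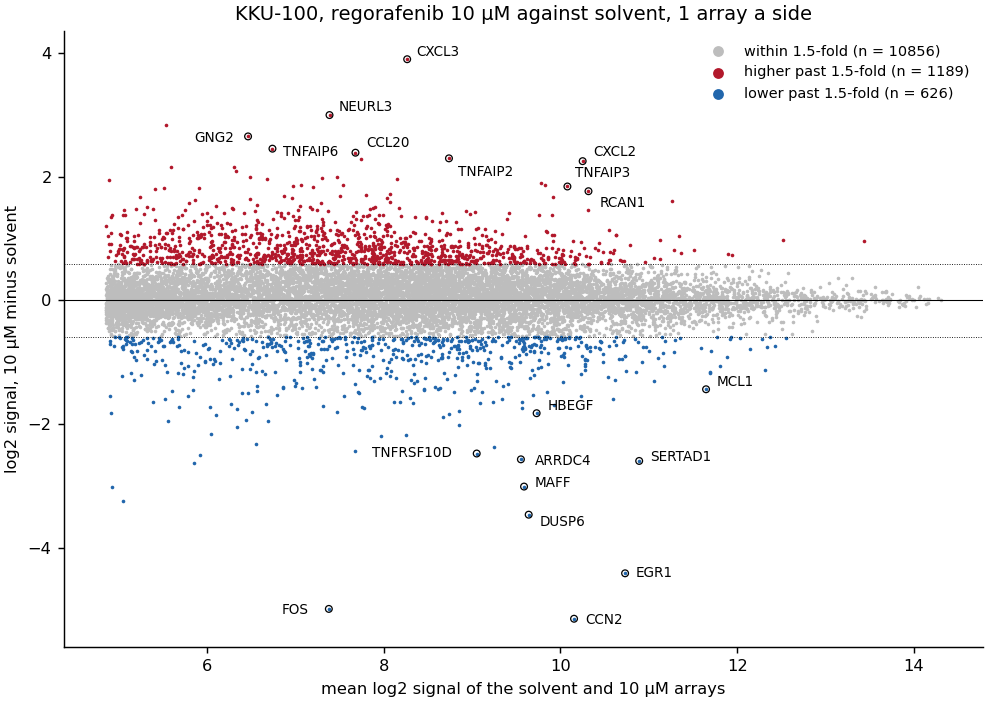
Each point is 1 of the 12671 genes past the level filter in KKU-100, with its mean log2 signal over the solvent and 10 µM arrays on the x axis and its log2 change at 10 µM on the y axis. Red points (1189) are higher and blue points (626) lower past 1.5-fold, marked by dotted lines, with CXCL3 at the top and CCN2, FOS and EGR1 at the bottom.

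NF-kB targets and chemokines had the highest median of the 43 gene lists at 10 µM. The lists and their members were chosen with earlier results of these data known, so ranks and counts by list are descriptions only. Of 22 members past the filter, 13 were higher and none lower, against 9.38% and 4.94% of all genes, and the median log2 change was 0.60 against 0.05 over all genes. The chemokine ligands led. CXCL3, which draws neutrophils, had a signal of 79.8 with solvent, 69.7 at 1 µM and 1187 at 10 µM, which is 14.9-fold higher at 10 µM and the largest rise of any gene past the filter. CXCL2, a close relative, went from 559 with solvent through 486 at 1 µM to 2658, 4.75-fold higher. CCL20, which attracts dendritic cells and lymphocytes, had 89.8, 49.3 and 469 on the same 3 arrays and was 5.22-fold higher. In all 3 the solvent and 1 µM arrays lay close together or the 1 µM array was the lower, and the 10 µM array stood far above both.

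CXCL1 moved less, from 1050.3 with solvent to 1576 at 10 µM, with 614 at 1 µM. CXCL1, CXCL2 and CXCL3 are near-identical genes, and a probe set of one may pick up RNA of another, so their separate values are uncertain. CXCL8, the main neutrophil chemokine, was within the cutoff at 4114 and 4159, while the 1 µM array read 562. CCL5, which attracts T cells and was named through its size and its probe sets, had 455 with solvent, 388 at 1 µM and 1691 at 10 µM. Its 3 probe sets gave log2 changes from 1.83 to 1.98, a narrow spread.

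Of the inhibitors of the pathway in the list, TNFAIP3 and NFKBIA were higher past the cutoff and NFKBIE was within it. TNFAIP3, the A20 enzyme that shuts NF-kB signalling off, had a signal of 572 with solvent and 2046 at 10 µM, 3.58-fold higher, against 438 at 1 µM. NFKBIA, the inhibitor that holds NF-kB in the cytoplasm, had 1818, 2825 and 3719, so it already stood higher at 1 µM. NFKBIE, a related inhibitor, had 235, 104 and 269. Among the subunits, RELB went from 118 to 179 and was just past the cutoff, while NFKB2 at 1.49-fold and NFKB1 at 1.12-fold were within it. ICAM1, an adhesion molecule for leukocytes, was 2.01-fold higher, with log2 changes from 0.46 to 1.00 over 3 probe sets. TNFAIP2, a cytokine-induced protein, went from 193 to 946, 4.90-fold higher. IL6 and TNF, both secreted cytokines, were 1.73-fold and 1.76-fold higher, but from signals of 32.6 and 35.9 that lay close to the array median.

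The 200 bases before the transcription start of 6 of these genes are shown because a motif of NF-kB, GGGNNTTTCC on either strand, lies in each of them. Sequences and starts are those of RefSeq (GRCh38.p14), printed 5′ to 3′ in the direction of the gene, with the motif in capitals.
CXCL3: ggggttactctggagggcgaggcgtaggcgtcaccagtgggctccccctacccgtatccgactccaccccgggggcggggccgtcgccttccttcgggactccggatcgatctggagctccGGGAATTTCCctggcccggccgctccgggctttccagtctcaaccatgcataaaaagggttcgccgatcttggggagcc
CXCL2: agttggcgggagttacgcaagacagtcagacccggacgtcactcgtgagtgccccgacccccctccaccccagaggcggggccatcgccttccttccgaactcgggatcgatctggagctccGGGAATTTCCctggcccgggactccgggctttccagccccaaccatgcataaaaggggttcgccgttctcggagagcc
CCL20: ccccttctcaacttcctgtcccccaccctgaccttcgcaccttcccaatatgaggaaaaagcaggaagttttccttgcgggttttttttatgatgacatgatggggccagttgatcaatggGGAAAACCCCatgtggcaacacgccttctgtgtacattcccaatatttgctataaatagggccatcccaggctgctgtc
TNFAIP3: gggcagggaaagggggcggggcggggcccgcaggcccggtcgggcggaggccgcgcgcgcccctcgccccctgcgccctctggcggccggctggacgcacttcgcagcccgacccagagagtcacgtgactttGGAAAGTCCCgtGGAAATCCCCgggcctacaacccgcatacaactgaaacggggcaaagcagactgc
NFKBIA: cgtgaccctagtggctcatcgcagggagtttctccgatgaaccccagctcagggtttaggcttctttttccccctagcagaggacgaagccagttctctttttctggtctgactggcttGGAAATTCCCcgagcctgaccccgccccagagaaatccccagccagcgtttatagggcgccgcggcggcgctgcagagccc
TNFRSF9: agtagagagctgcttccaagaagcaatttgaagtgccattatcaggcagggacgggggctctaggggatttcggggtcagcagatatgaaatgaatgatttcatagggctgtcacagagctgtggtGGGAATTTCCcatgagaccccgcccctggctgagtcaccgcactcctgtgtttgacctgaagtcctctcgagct
They lie at chr4:74038690-74038889 (minus strand), chr4:74099196-74099395 (minus), chr2:227813642-227813841 (plus), chr6:137867059-137867258 (plus), chr14:35404750-35404949 (minus) and chr1:7940840-7941039 (minus). The motif begins 79 bases before the start in CXCL3 and 78 bases before it in CXCL2, within a stretch that both paralogs share. CCL20, TNFAIP3 and NFKBIA carry it on the other strand, and TNFAIP3 carries it at 2 places.

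Over all 35116 RefSeq windows of this length, 1.43% held the motif, and 2.29% of the 10253 genes past the level filter that had a window did. It was present in 6 of the 20 windows found for the 23 genes named for the largest rises (TNFAIP3, CXCL3, NEURL3, CCL20, CXCL2 and TNFRSF9) and in none of the 19 found for the 23 largest falls. Of the NF-kB list, 10 of 18 windows held it, a list that was drawn up from known targets. NFKB1, NFKB2 and REL were among these 10 and were within the cutoff, at log2 changes of 0.17, 0.57 and −0.09. The others of the 10 were higher past it. A match of letters is a description of these windows and not a site shown to be bound.

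Receptors and ligands of the TNF family went both ways. TNFRSF9, the co-stimulatory receptor 4-1BB, had signals of 37.6, 48.5 and 167 with solvent, 1 µM and 10 µM and was 4.45-fold higher at 10 µM. Its ligand TNFSF9 went the other way, from 579 to 212. TNFRSF10D, a decoy receptor for the death ligand TRAIL, fell from 1252 to 225, 5.56-fold, with 178 at 1 µM. TNFSF10, which encodes TRAIL, was 1.54-fold higher and CFLAR, an inhibitor of death receptor signalling, 1.53-fold higher. Of the 14 family members past the filter, 3 were higher and 2 lower, against 9.38% and 4.94% of all genes.

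NEURL3, a ubiquitin ligase, had signals of 59.3, 53 and 472 and was 7.96-fold higher at 10 µM. TNFAIP6, a secreted hyaluronan-binding protein of inflammation, had 45.8, 111 and 250.1, so that it was already higher at 1 µM, and its 2 probe sets gave log2 changes of 2.45 and 2.57. GNG2, a G protein gamma subunit, went from 35.3 with solvent to 221 at 10 µM while the 1 µM array read 30.5. These 3 genes were named for the size of their change and belong to no list. RCAN1, an inhibitor of calcineurin, was 3.39-fold higher at 2351 against 693, although its 2 probe sets differed, with log2 changes of 0.86 and 1.76.

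Interferon-stimulated genes had a median log2 change of 0.06, against 0.05 over all genes. Of 28 past the filter, 5 were higher and 1 lower, against 9.38% and 4.94% of all genes. The 5 were CXCL10 and CXCL11, chemokines for T cells, IRF1, a transcription factor, and PSMB8 and PSMB9, subunits of the immunoproteasome. CXCL10 had signals of 79.7, 155 and 313 with solvent, 1 µM and 10 µM, and IRF1 had 541, 601 and 1726. CXCL10 thus rose at each step and IRF1 only at 10 µM among these 3 arrays. RIGI, a sensor of viral RNA, was the member that fell, from 985 to 522.

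**Figure D2:**
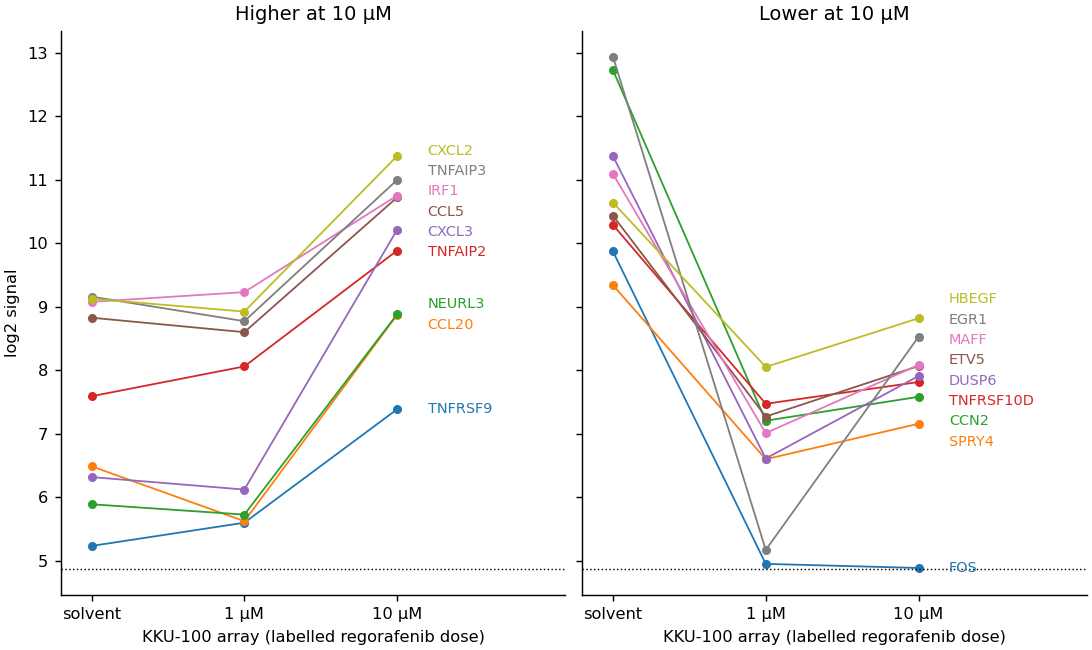
Log2 signal on the y axis for the KKU-100 arrays with solvent, 1 µM and 10 µM on the x axis, 1 line a gene and 1 array a point, with the median signal of the solvent array as a dotted line. The left panel shows genes higher at 10 µM, most of them flat between solvent and 1 µM, and the right panel genes lower at 10 µM, all of them lower at 1 µM as well.

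ERK pathway feedback genes had the lowest median of the 43 lists at 10 µM, a rank that also depends on lists chosen with earlier results known. Of 19 members past the filter, 15 were lower and 1 higher, against 4.94% and 9.38% of all genes, and the median log2 change was −1.02. DUSP6, the phosphatase that inactivates ERK, had a signal of 2651 with solvent, 97.8 at 1 µM and 241 at 10 µM, 11-fold lower at 10 µM. Its 3 probe sets gave log2 changes between −3.46 and −3.16. SPRY4 and SPRED1, brakes on RAS signalling, fell from 649 to 143 and from 927 to 229.9. The ETS factors ETV5, ETV1 and ETV4, whose genes are induced by ERK, were 5.16-fold, 2.68-fold and 2.03-fold lower. ETV5 had 4 probe sets, with log2 changes between −2.37 and −2.09.

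Other falls in the list were smaller. DUSP5, a nuclear ERK phosphatase, was 2.79-fold lower, PHLDA1 2.92-fold, SPRY2 2.19-fold and FOSL1, an AP-1 subunit, 2.82-fold. CCND1, cyclin D1, went from 1129 to 687, 1.64-fold lower, and DUSP4, another ERK phosphatase, from 1458 to 971, just past the cutoff. SPRY1 was the member on the higher side, at 48.9 with solvent and 90.8 at 10 µM, but its 2 probe sets gave log2 changes of 0.17 and 0.89. IER3 and EPHA4 were within the cutoff at log2 changes of −0.55 and 0.02.

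Immediate early genes, which cells induce within minutes of a stimulus, fell in part. Of 31 past the filter, 15 were lower, 1 was higher and 15 were within 1.5-fold, where 4.94% of all genes were lower and 9.38% higher. Their median log2 change was −0.54. FOS, an AP-1 subunit, had signals of 937 with solvent, 31 at 1 µM and 29.6 at 10 µM, so that both treated arrays read close to the array median, 31.7-fold below solvent at 10 µM. EGR1, a zinc finger factor, had 7841, 36.1 and 369 and was 21.3-fold lower at 10 µM, with log2 changes between −5.17 and −3.91 over 3 probe sets. EGR1 was among the brightest genes with solvent, nearly at the array median at 1 µM, and in between at 10 µM.

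MAFF, a small bZIP factor, went from 2184 to 271, 8.05-fold lower, and SERTAD1, a cell cycle regulator, from 4668 to 773, 6.04-fold lower. JUNB and CSRNP1, both transcription factors, were 3.13-fold and 3.14-fold lower. EGR4 fell on both of its probe sets past the filter, but by very different amounts, with log2 changes of −2.15 and −5.97. MCL1, an inhibitor of apoptosis, went from 5281 to 1951, 2.71-fold lower, and all 6 of its probe sets were lower, between log2 changes of −3.08 and −0.68.

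Not all of the list moved. JUN had 4973 with solvent, 1844 at 1 µM and 4134 at 10 µM, so the 10 µM array lay within the cutoff of solvent and the 1 µM array did not. ATF3, a stress factor, had 1134, 121 and 1588, again with its low value at 1 µM only. KLF4 and KLF10 were within the cutoff at log2 changes of −0.01 and −0.19. KLF6, a zinc finger factor, was the member on the higher side, 1.72-fold, with probe sets that ranged from a log2 change of −0.10 to 0.78.

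YAP and TAZ are the co-activators that the Hippo pathway restrains, and the study asked whether regorafenib acts on them. Besides these arrays it used a reporter of YAP1 activity, YAP1 phosphorylation, cell fractions and RNA assays of targets. It also used a YAP1 inhibitor, YAP1 knockdown and YAP1 overexpression, and worked in HuccT1 and other lines. The KKU-100 values below do not cover those measures. CCN2, their best known target and a matricellular growth factor, had the largest fall of any gene past the filter, from 6777 with solvent to 192 at 10 µM, 35.3-fold, with 148 at 1 µM. It has 1 probe set. CCN1, its relative, went from 4957 to 2201, 2.25-fold lower, and DLC1 from 119 to 36.1. The rest of the list did not follow these 3 genes. Of 23 members past the filter, 3 were lower, 1 (AJUBA, 1.72-fold) was higher and 19 were within 1.5-fold, with a median log2 change of 0.01. Over all genes, 4.94% were lower and 9.38% higher. YAP1 itself had 1118 and 1121, and WWTR1, which encodes TAZ, 2018 and 1519, both within the cutoff. The probe sets of WWTR1 gave log2 changes between −1.03 and −0.41. Of 16 Hippo pathway components, 1 was higher (WWC1, a scaffold protein) and 1 lower (SAV1, the scaffold of the upstream kinase). These counts are near the shares of all genes.

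The 200 bases before the start of EGR1 and CCN2 are shown because these falls were among the 3 largest and each window holds more than 1 copy of a motif. In EGR1 the capitals mark CArG boxes, the element bound by serum response factor, and in CCN2 the letters GGAATG, bound by TEAD factors, the partners of YAP and TAZ.
EGR1: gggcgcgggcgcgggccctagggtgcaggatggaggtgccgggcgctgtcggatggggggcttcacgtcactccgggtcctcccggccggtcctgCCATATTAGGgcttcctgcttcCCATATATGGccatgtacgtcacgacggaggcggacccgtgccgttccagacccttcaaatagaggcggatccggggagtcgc
CCN2: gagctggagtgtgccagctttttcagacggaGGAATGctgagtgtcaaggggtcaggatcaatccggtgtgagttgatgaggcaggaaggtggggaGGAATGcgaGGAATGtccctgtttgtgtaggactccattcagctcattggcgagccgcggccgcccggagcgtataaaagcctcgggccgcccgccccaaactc
They lie at chr5:138465279-138465478 (plus strand) and chr6:131951373-131951572 (minus) of GRCh38.p14. Over all windows 0.982% held a CArG box and 9.51% held GGAATG on either strand. Among genes past the filter the shares were 1.25% and 10.1%. A CArG box was found in 2 of 27 windows of the immediate early genes, EGR1 and SRF, and GGAATG in 7 of 16 windows of the YAP/TAZ targets, of which CCN2 was the only one lower past 1.5-fold. No 2 motifs in capitals overlap, and a match of these short letters shows no binding.

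**Figure D3:**
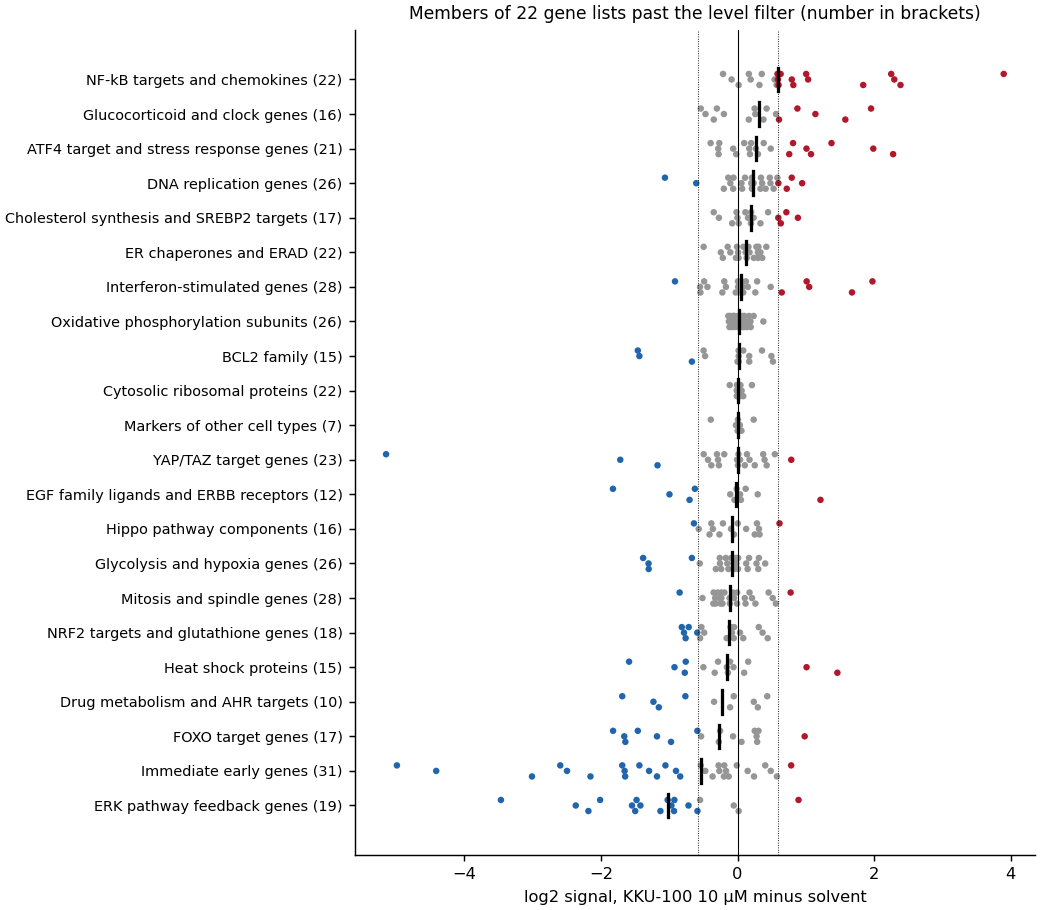
Each point is a gene of the list named on the y axis that passed the level filter (their number in brackets), with its log2 change in KKU-100 at 10 µM on the x axis, and the black bar is the median of the list. Red and blue points lie past 1.5-fold (dotted lines). The ERK feedback list sits lowest at a median of −1.02 and the NF-kB list highest at 0.60, while YAP/TAZ targets centre on 0.01 apart from CCN2. The lists were chosen with earlier results of these data known.

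Growth factor ligands and their receptors split. HBEGF, an EGF receptor ligand, had 1599 with solvent, 266 at 1 µM and 452 at 10 µM and was 3.54-fold lower, with both probe sets alike at log2 changes of −1.87 and −1.82. TGFA and EREG, further ligands, were 1.63-fold and 1.54-fold lower, but single probe sets of both lay at 0.12 and 0.58. ERRFI1, an inhibitor of the receptor, was 1.99-fold lower. ERBB3, a receptor of the family, was 2.32-fold higher, from 42 to 97.5. Of 12 members past the filter, 4 were lower and 1 higher, against 4.94% and 9.38% of all genes. AREG, the ligand that the study places downstream of YAP1, is not among these 12.

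Among ephrins, membrane-bound ligands of the Eph receptors, the ligands went in both directions. EFNB2 fell from 534 to 118 and EFNA1 rose from 535 to 1399, 2.61-fold. EFNA2 read 144 with solvent and 23.3 at 10 µM, below the array median at 10 µM. EPHA2, a receptor, was 1.96-fold lower. EPHA2 is also the largest of the 2 falls among 10 kinases that regorafenib binds and that passed the filter. DDR2, a collagen receptor, was the other and ABL1 the only rise, where 4.94% of all genes fell and 9.38% rose past 1.5-fold.

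FOXO factors are active when the PI3K and AKT pathway is low. Of 17 of their targets past the filter, 7 were lower and 1 higher, against 4.94% and 9.38% of all genes, with a median log2 change of −0.27. BCL6, a repressor, fell from 971 to 308, 3.16-fold, IRS2, an adaptor of the insulin receptor, from 1070.0 to 343, 3.12-fold, and SESN3, a stress sensor, from 56.7 to 16, below the median. BCL2L11, which encodes the death protein BIM, went from 492 to 179, 2.75-fold lower. Its 6 probe sets spread from a log2 change of −1.46 to −0.05, so the size of its fall differs with the probe set read. GADD45A, a growth arrest gene, was on the higher side with 4166, 2429.9 and 8230.3 on the solvent, 1 µM and 10 µM arrays, lowest at 1 µM and highest at 10 µM.

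In the BCL2 family, 3 of 15 members were lower (MCL1, BCL2L11 and BNIP3L) and none higher, so that an inhibitor and a promoter of apoptosis moved the same way. Over all genes, 9.38% were higher and 4.94% lower. Of 16 p53 targets, 1 was higher (GADD45A) and 1 lower (PLK3), which is near these shares. ARRDC4, an arrestin-like protein, and TXNIP, both induced by glucose, were the 2 members of their list that fell. ARRDC4 had 1829.7, 99.7 and 308, 5.93-fold lower at 10 µM, and TXNIP 833, 208 and 554. Both lay lowest on the 1 µM array.

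ATF4 directs the response to amino acid shortage and stress of the endoplasmic reticulum. Of 21 targets and stress genes past the filter, 7 were higher and none lower at 10 µM, against 9.38% and 4.94% of all genes. Their median log2 change was 0.27. PCK2, a mitochondrial enzyme of gluconeogenesis, had 97.2, 150.1 and 471 with solvent, 1 µM and 10 µM and was 4.84-fold higher. TRIB3, a pseudokinase, went from 597 to 1548, 2.59-fold higher, with log2 changes of 1.01 and 1.37 on its 2 probe sets. DDIT3, which encodes CHOP, read 1177, 451 and 2066, and CHAC1, which breaks down glutathione, 258, 135 and 520.0. Both were below solvent at 1 µM and above it at 10 µM. ATF4 itself and ASNS, asparagine synthetase, were within the cutoff at 7049 and 6958 and at 1824 and 2018.

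Of 14 genes of serine, one-carbon and asparagine synthesis, 2 were higher, where 9.38% of all genes were. These were ALDH1L2, a mitochondrial folate enzyme, at 78.8 and 217, and PHGDH, the first enzyme of serine synthesis, at 205 and 382. AARS1, the alanyl-tRNA synthetase, was the only one of 17 synthetases past the cutoff, 1.92-fold higher. Amino acid transporters went both ways, with SLC1A4 2.01-fold and SLC1A1 1.86-fold higher and SLC6A14, SLC7A11 and SLC38A2 2.16-fold, 1.64-fold and 1.54-fold lower. None of 22 chaperones of the endoplasmic reticulum passed 1.5-fold, and HSPA5, the most used marker of stress there, was 1.29-fold higher.

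Of 15 heat shock genes, 4 were lower, 2 higher and 9 within the cutoff, where 4.94% of all genes were lower and 9.38% higher. The median log2 change of the list was −0.16. DNAJB1, a co-chaperone, fell from 2675 to 890.3, 3.0-fold, and DNAJA1, HSPH1 and DNAJB4 were 1.90-fold, 1.71-fold and 1.69-fold lower. The small heat shock protein HSPB1 rose from 769 to 2116, 2.75-fold, and HSPB8 was 2.01-fold higher. Targets of NRF2, the factor of the antioxidant response, were lower in 5 of 18 cases and higher in none. The 5 were GCLC and GCLM, the subunits of an enzyme of glutathione synthesis, at 2717 and 1543 and at 4278 and 2843, SRXN1, OSGIN1 and SLC7A11.

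Several smaller groups had named members past the cutoff, where 4.94% of all genes were lower and 9.38% higher. Among 26 genes of glycolysis and hypoxia, 4 were lower and none higher, led by PFKFB3, a regulator of glycolysis, from 1054 to 404, ANKRD37, a hypoxia-induced gene, from 522 to 212, and KDM3A, a histone demethylase, from 836 to 339. Genes of drug metabolism, drug efflux and the aryl hydrocarbon receptor were lower in 4 of 10 cases (TIPARP, AHRR, CYP1B1 and CYP1A1) and higher in none. HES1, a Notch target, fell from 1333 to 428, 3.11-fold, on both probe sets. ID2 and ID3, related inhibitors of bHLH factors, went opposite ways, ID2 from 170.0 to 44.4 and ID3 from 89 to 356. SFPQ, a paraspeckle splicing protein, was 2.47-fold lower, with all 4 probe sets lower between log2 changes of −1.94 and −1.03.

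Glucocorticoid-induced and clock genes were higher in 5 of 16 cases and lower in none, against 9.38% and 4.94% of all genes, with a median of 0.32. TSC22D3, known as GILZ, rose from 144 to 558, 3.87-fold, but its 2 probe sets past the filter gave log2 changes of 0.45 and 1.95. PER3, a clock repressor, went from 32.3 to 96.3. Of 17 genes of cholesterol synthesis, 4 were higher (LSS, HSD17B7, MSMO1 and HMGCS1), between 1.51-fold and 1.84-fold.

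Epithelial genes past the filter had a median log2 change of 0.33 at 10 µM, against 0.05 over all genes. Of 21 on the array, 12 lay above the array median with solvent and 17 at 10 µM. Some of the 15 past the filter thus passed through their signal at 10 µM. Neither this median nor the count of higher members is support for a rise of the list. CDH1, which encodes E-cadherin, had 22.9 with solvent, 76.7 at 1 µM and 79.9 at 10 µM, where HuccT1 with solvent read 2628. It lay below the array median with solvent and passed the filter only through its signal at 10 µM, so its rise is no support for a change of the list. Of 15 epithelial genes past the filter, 3 were higher (CDH1, CLDN1 and TJP3) and none lower, against 9.38% and 4.94% of all genes. The 2 probe sets of CLDN1, a tight junction protein, gave log2 changes of −0.34 and 0.65. SNAI2, a repressor of CDH1, did not pass the filter, at 43.1, 12.2 and 18.4. VIM, vimentin, was within the cutoff at 493 and 518. Of 12 genes of matrix proteases, their inhibitors and the plasminogen system, 3 were lower, against 4.94% of all genes, and none higher, with a median log2 change of −0.0046. The 3 were the plasminogen system genes past the filter, PLAU, which encodes urokinase, at 412 and 249, PLAT at 4961 and 2217 and PLAUR, the receptor of urokinase, at 1727 and 888. ITGA2, a collagen receptor subunit, was 2.31-fold lower on both probe sets.

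Cell cycle genes went both ways. CCNE2, cyclin E2, fell from 623 to 235, 2.65-fold, and RRM2, a subunit of ribonucleotide reductase, from 3338 to 1598. Of 26 replication genes 4 were higher (POLE2, RFC4, RFC3 and CDC6) and 2 lower (RRM2 and MCM7), against 9.38% and 4.94% of all genes. Of 28 mitotic genes 1 was higher (PLK1) and 1 lower (CDC25C). None of 22 ribosomal protein genes and none of 26 subunits of oxidative phosphorylation passed the cutoff. Their log2 changes ran from −0.11 to 0.21 and from −0.13 to 0.38. Of 13 housekeeping genes, 1 was lower (POLR2A, the large subunit of RNA polymerase II, 1.57-fold). These lists show how little a bright, steady gene moved between the 2 arrays.

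Genes with several probe sets gave the only repeat measurement of a change. Of 6055 such genes, 1842 had at least 1 probe set past 1.5-fold, and in 1233 of these (66.9%) all probe sets had the same sign. In 142 genes all probe sets were higher and in 139 all were lower past the cutoff, and 45 genes had probe sets past it both ways. The larger the change, the more often the probe sets agreed. Where the brightest probe set was lower, all probe sets had its sign in 276 of 339 genes (81.4%), in 86 of 93 (92.5%) past 2-fold and in 10 of 10 past 4-fold. Where it was higher, the counts were 356 of 487 (73.1%), 87 of 110 (79.1%) and 1 of 1. Falls therefore had the same sign over probe sets in a larger share of genes than rises, at the cutoff and past 2-fold.

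The balance of rises and falls depended on the probe sets counted. The brightest probe sets of the 12671 genes were higher in 9.38% and lower in 4.94%. The 10400 other probe sets of these and further genes were higher in 7.12% and lower in 10.6%, and 3071 probe sets without a gene symbol in 7.07% and 8.89%. Within 6054 genes the change of the brightest probe set exceeded the median of the others in 60.3%, by a median log2 difference of 0.07. The same excess was 55.8% in KKU-100 at 1 µM, which shares the solvent array, and 58.3% in HuccT1 at 10 µM. The part of the choice of probe set in the balance of rises and falls was not tested beyond these shares.

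Some genes were chosen by rule because all of their probe sets lay past the cutoff. Of the 15 largest rises with all probe sets past the cutoff, TNFAIP6, CCL5, TNFAIP3 and IRF1 belong to the inflammatory genes above. Others do not: NUDT16, an RNA-decapping hydrolase, rose from 78.3 to 226, with 3 probe sets between log2 changes of 1.21 and 1.53, and DHDDS, an enzyme of dolichol synthesis, from 171 to 483. ABHD6, a lipase, went from 126 to 338, RERG, a RAS-like GTPase, from 420.0 to 1117, and KICS2, a subunit of a complex that restrains mTORC1, from 87.5 to 242. These 5 genes were higher at 1 µM as well, with signals of 148, 329, 325, 1431 and 162 in that order.

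Of the 15 largest falls of this kind, TENT5C, a poly(A) polymerase, had 211, 23.1 and 42.2 on the solvent, 1 µM and 10 µM arrays. UBALD2 had 475, 79.4 and 87.5, and RGS4, which shortens G protein signals, 202, 73.5 and 52.6. The 1 µM array lay below solvent in each of these 3 genes, and in RGS4 alone the 10 µM array was lower still. STC1, the secreted hormone stanniocalcin, fell from 1378 to 414, and its 3 probe sets lay between log2 changes of −1.80 and −1.40. GLCCI1 fell from 330.3 to 94.8. ESM1, a secreted proteoglycan with 1 probe set, fell from 130.1 to 36.1.

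**Figure D4:**
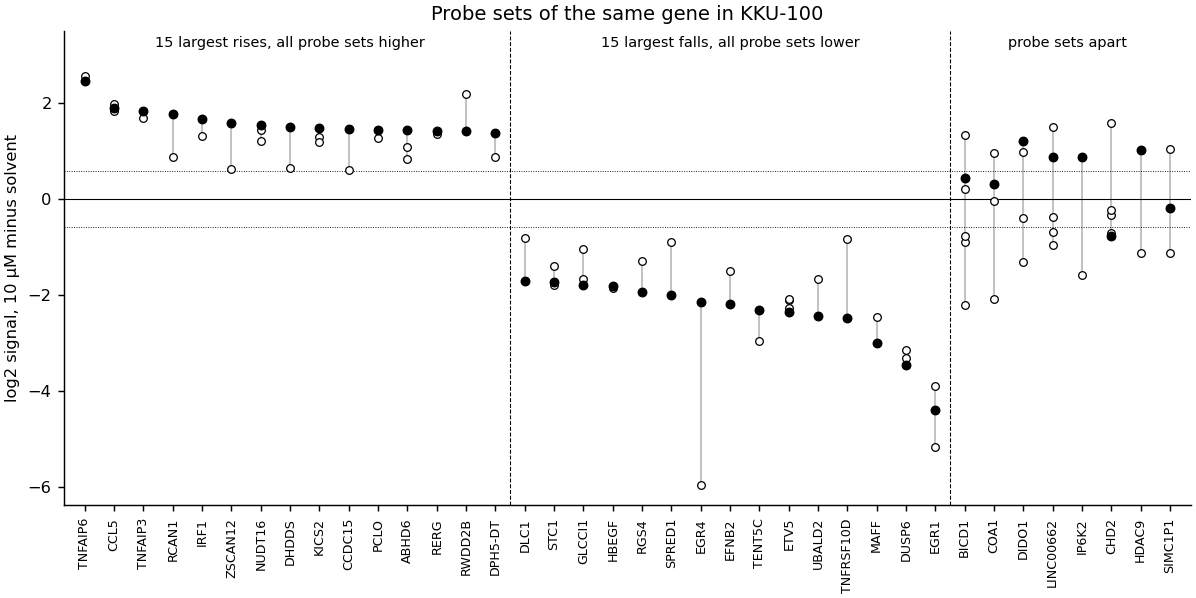
Log2 change in KKU-100 at 10 µM on the y axis for each probe set past the level filter, by gene on the x axis, with the brightest probe set of a gene filled. The 15 largest rises and falls were chosen for probe sets that all lie past 1.5-fold (dotted lines), with EGR4 spread widest, from −2.15 to −5.97, and the 8 genes on the right for probe sets past it both ways.

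Other genes had probe sets that moved apart, chosen by rule for the widest range. One probe set of BICD1, a motor adaptor, fell from 116 to 25.2, another rose from 22.2 to 56.1, and the brightest went from 488 to 656. IP6K2, an inositol phosphate kinase, had only 2 probe sets past the filter, which went from 987 to 329 and from 432 to 789. DIDO1 had 2 probe sets with log2 changes of 1.20 and 0.98 and another at −1.32, and CHD2, a chromatin remodeller, had 1 at 1.58 and its brightest at −0.77. COA1, HDAC9, LINC00662 and SIMC1P1 also had probe sets past the cutoff both ways. No single direction can be given for these 8 genes.

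The KKU-100 array at 1 µM shares the solvent array with the 10 µM array, so a like change at both doses is not a repeat. At 1 µM, 1225 genes (9.67%) were higher and 951 (7.51%) lower past 1.5-fold over the same 12671 genes. ERK feedback genes were lower in 14 of 19 cases at 1 µM and 15 of 19 at 10 µM, with medians of −0.93 and −1.02. Immediate early genes were lower in 20 of 31 and 15 of 31, with medians of −1.15 and −0.54. NF-kB targets were higher in 2 and lower in 8 of 22 at 1 µM, and higher in 13 and lower in none at 10 µM, with medians of −0.20 and 0.60. ATF4 targets were higher in 3 and lower in 7 of 21 at 1 µM, and higher in 7 and lower in none at 10 µM.

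The 2 dosed arrays can be set against each other without the solvent array. At 10 µM against 1 µM, 589 genes (4.65%) were higher and 211 (1.67%) lower past 1.5-fold. Of the 22 NF-kB targets, 17 were higher at 10 µM than at 1 µM and none lower, of the 21 ATF4 targets 11 and none, of the 31 immediate early genes 9 and 1, and of the 19 ERK feedback genes 3 and 2. Among 22 chaperones of the endoplasmic reticulum 6 were higher and none lower, and of 28 mitotic genes none was higher and 5 were lower. The median log2 difference was 1.00 over the NF-kB targets and 0.0049 over the ERK feedback genes, whose members differed both ways, DUSP6 being higher and DUSP4 lower at 10 µM than at 1 µM.

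By rule, the genes with the largest excess at 10 µM over 1 µM, among those past 1.5-fold against solvent at 10 µM, were CXCL3, EGR1, CCL20, NEURL3, GNG2, PTX3, CXCL2 and PPP2R2D. PTX3, a secreted pentraxin of innate immunity, had 476 with solvent, 282 at 1 µM and 1732 at 10 µM. EGR1 is in this group as a gene that lay higher at 10 µM than at 1 µM while below solvent at both. PPP2R2D had 2 probe sets with log2 changes against solvent of −0.61 and 1.09, so its place is uncertain. On the other side stood DUSP4, CRB1, LINC00473, SLC6A14, SLITRK6, GAS1, HSPA2 and FOXQ1. LINC00473, a long noncoding RNA, had 91.6, 510.2 and 253, and GAS1, a growth arrest gene, 285, 996 and 444, with their highest signals at 1 µM. DUSP4 had 1947 at 1 µM, above its solvent signal, and 971 at 10 µM, below it.

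HuccT1 cells at 10 µM have a solvent array of their own. Over the 12671 genes, 1028 (8.11%) were higher and 746 (5.89%) lower there. Of 11997 genes past the level filter in both lines, 301 were higher in both, which is 28.0% of the 1074 higher in KKU-100 and 31.2% of the 966 higher in HuccT1. In comparison, 8.05% of all 11997 were higher in HuccT1. Lower in both were 118 genes, 21.0% of the 562 lower in KKU-100 and 16.6% of the 712 lower in HuccT1, where 5.93% of all were lower. Opposite calls were made for 49 of the 1074 genes higher in KKU-100, where 5.93% of all were lower in HuccT1. They were also made for 42 of the 562 lower in KKU-100, where 8.05% of all were higher in HuccT1. Neither count exceeds its share.

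**Figure D5:**
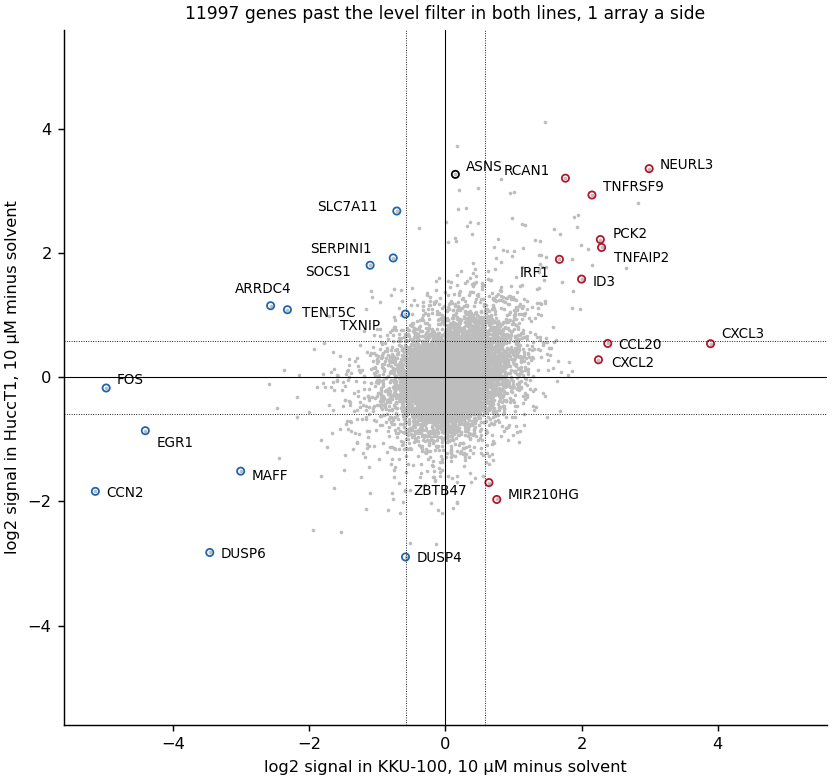
Each point is 1 of the 11997 genes past the level filter in both lines, with its log2 change at 10 µM in KKU-100 on the x axis and in HuccT1 on the y axis, against the solvent array of its own line, and dotted lines mark 1.5-fold. Circled genes are red where higher, blue where lower and black where within 1.5-fold in KKU-100. DUSP6, MAFF and CCN2 lie low in both lines, FOS and CXCL3 far out in KKU-100 only, and SLC7A11 and ARRDC4 on opposite sides.

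DUSP6 fell in both lines, from 2651 to 241 in KKU-100 and from 1812 to 256 in HuccT1. NEURL3, TNFRSF9, RCAN1 and PCK2 rose in both, with log2 changes of 2.99, 2.15, 1.76 and 2.28 in KKU-100 and 3.37, 2.94, 3.21 and 2.23 in HuccT1. The chemokines differed in their starting level. CXCL3 read 79.8 with solvent in KKU-100 and 5807 in HuccT1, and at 10 µM 1187 and 8472. CCL20 read 89.8 and 5534 with solvent, and 469 and 8098 at 10 µM. In both genes KKU-100 at 10 µM remained below HuccT1 with solvent.

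FOS and CCN2 also started from different levels. FOS was 937 with solvent in KKU-100 against 55.6 in HuccT1, and 29.6 against 49.5 at 10 µM. CCN2 was 6777 against 278 with solvent and 192 against 77.8 at 10 µM. EGR1 was 7841 against 380.4 with solvent and 369 against 209.9 at 10 µM. These 3 genes were far brighter in KKU-100 with solvent than in HuccT1 with solvent, and the lines lay closer at 10 µM.

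The list counts for HuccT1 are over members past the level filter in KKU-100, whatever their signal in HuccT1. By list, ERK feedback genes were lower in 13 of 19 cases in HuccT1 and 15 in KKU-100, and NF-kB targets higher in 12 of 22 and 13. Immediate early genes were lower in 6 of 31 in HuccT1 and 15 in KKU-100. YAP/TAZ targets were lower in 8 of 23 in HuccT1 and 3 in KKU-100, with medians of −0.41 and 0.01. Over all genes, 5.89% were lower and 8.11% higher in HuccT1, and 4.94% and 9.38% in KKU-100. ATF4 targets were higher in 16 of 21 in HuccT1 and 7 in KKU-100, with medians of 1.16 and 0.27, and ASNS had a log2 change of 3.28 in HuccT1 and 0.15 in KKU-100. Ribosome biogenesis genes were lower in 8 of 20 in HuccT1 and in 1 in KKU-100. With 1 array a side in each line, none of these differences between the lines was tested.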

How the data were processed

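Total RNA of KKU-100 and HuccT1 cells was hybridized to Affymetrix expression arrays, 1 for each line and condition, after biotin labelling. The deposited values are intensities on a linear scale, which the authors made with MAS5 per the labels (version not given in the sources used here). They came without detection calls, and the number of arrays limits the precision. Without the 62 control probe sets, signals were log2 transformed without further scaling. Of the probe sets, 41091 carried 1 gene symbol, 1801 several and 11721 none, and 41037 symbols were matched by gene ID to RefSeq (GRCh38.p14).

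Genes named are the 15 largest rises and falls with all probe sets past 1.5-fold, the 8 largest with 1 probe set, the 8 with the most divergent probe sets, the 8 most different each way from 1 µM and from HuccT1, and members of 43 gene lists. The members and lists were chosen with earlier results of these data known. Motifs were searched in both strands. Steps used Python 3.11.15, numpy 2.4.6 and pandas 2.3.3, and were tested on simulated data. Alternatives were another scaling (quantile, median centring), a floor at the 20th percentile, other level filters, a 2-fold cutoff, the median over probe sets, and omission of the probe sets with names that mark a match to more than 1 transcript.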

Additional observations from a re-analysis of the deposited data

Results flagged for a closer look

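Among the named genes past the level filter in both lines, 10 were past 1.5-fold in opposite directions in KKU-100 and HuccT1 at 10 µM. With 1 array a side in each line, this difference was not tested. ARRDC4, TENT5C, SOCS1, SERPINI1, SLC7A11, MIR210HG and ZBTB47 were among the genes picked by rule for the largest difference between the lines. Their opposite calls follow in part from that choice and are no support for a difference. Over all 11997 genes past the filter in both lines, 49 of the 1074 higher in KKU-100 were lower in HuccT1, against 5.93% of all. Of the 562 lower in KKU-100, 42 were higher in HuccT1, against 8.05% of all. Neither count exceeds its share. Of the 10 named genes, 7 were lower in KKU-100 and higher in HuccT1. The log2 changes were −2.57 and 1.16 for ARRDC4, an arrestin-like protein, and −0.59 and 1.02 for TXNIP, its relative. They were −2.32 and 1.09 for TENT5C, −1.11 and 1.81 for SOCS1, an inhibitor of cytokine signalling, and −0.77 and 1.93 for SERPINI1, a serpin. SLC7A11, the cystine transporter, had −0.71 and 2.68, with signals of 2034 and 1239 in KKU-100 and of 209 and 1347 in HuccT1, so the lines came to lie close together at 10 µM. ITGB8, an integrin subunit, had −0.76 and 0.78.

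Higher in KKU-100 and lower in HuccT1 were MIR210HG, a noncoding RNA, with log2 changes of 0.75 and −1.97, ZBTB47 with 0.64 and −1.69, and HMGCS1, an enzyme of cholesterol synthesis, with 0.60 and −0.85. The probe sets of a gene did not always move together in KKU-100. They ran from −1.11 to −0.32 in SOCS1, from 0.16 to 0.75 in MIR210HG, from 0.29 to 0.64 in ZBTB47 and from −0.17 to 0.60 in HMGCS1.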

How the results depend on the processing

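Counts of called probe sets and genes stayed within 1.5 times under each scaling, floor and level filter tried. At a 2-fold cutoff, 550 probe sets were higher and 605 lower, 306 genes higher and 188 lower, and 23 and 38 genes had all probe sets past the cutoff. Without probe sets whose names end in _s_at, _x_at or _a_at, 1139 probe sets were lower, and 63 and 68 genes had all probe sets past the cutoff. The list medians were then −0.98 for immediate early genes, 0.53 for ATF4 targets and −0.46 for NRF2 targets. They were −0.62 for metallothioneins and zinc transporters, 0.14 for Wnt and Notch targets and 0.20 for biliary markers. The other 37 list medians moved by less than the median SD between probe sets of a gene, 0.198 on the log2 scale, and all 43 did under every other alternative run on them. Genes higher made up 65.5% of the called genes and between 61.6% and 69.5% under the alternatives.

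With the median over probe sets, HDAC9 turned to −0.056, IP6K2 to −0.36, LINC00662 to −0.38 and POLR1A to 0.25. Without those probe sets, DIDO1 turned to −1.32, GAS1 to −0.0014, IP6K2 to −1.59, RCAN1 to −0.0056, SMURF2 to 0.044 and TSC22D3 to −0.012. The values of GAS1, RCAN1 and TSC22D3 then come from probe sets below the level filter on both arrays, with signals between 10.6 and 17.9. Of 217 named genes, 49 more moved by over that SD without turning when the median over probe sets was used. Without the _s_at, _x_at and _a_at probe sets, 33 more moved without turning, 138 stayed within that SD and 6 turned. The remaining named genes had no value under that alternative. None of the 217 moved by that much under quantile normalization, median centring or the floor. No paired analysis was possible because each condition has 1 array and no replicate number, and leaving out a replicate was not possible for the same reason. The cause of these shifts was not tested.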

Other observations

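Some KKU-100 genes at 10 µM fall outside the groups above. MAP2K6, a kinase that activates p38, had signals of 38.9 with solvent, 296 at 1 µM and 166 at 10 µM, and was chosen after its values were seen. AOC3, an amine oxidase, had 102, 7.94 and 10.8 and RFPL3S 86.1, 9.72 and 10.7. Both were also chosen after their values were seen, and they went from above the array median to well below it on both dosed arrays. PYCARD-AS1, an antisense RNA, had 165, 31.6 and 39.8, with 1 probe set.

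The remaining gene lists had between 1 and 5 members past 1.5-fold in KKU-100 at 10 µM, where 9.38% of all genes were higher and 4.94% lower. Of 23 autophagy and lysosome genes 1 was higher and 2 lower, with TFEB, the factor that drives lysosomal genes, at 46.8 and 109 and ULK1, which starts autophagy, at 256 and 125. The probe sets of TFEB gave log2 changes of 0.18 and 1.21. Of 9 members of the list of metallothioneins and zinc transporters 2 were lower, MTF1 and SLC39A10, neither of them a metallothionein. Of 16 Wnt and Notch targets 3 were lower and 1 higher, and of 17 ID and BMP or TGF-beta feedback genes 4 and 1. Of 16 G1 cyclins and CDK inhibitors 2 were lower and 0 higher, as of 20 splicing genes and of 16 integrins and laminins. Of 13 mesenchymal genes 1 was lower and 0 higher, as of 20 ribosome biogenesis genes.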
